A study of Mus musculus with 2 samples.

Results

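Nodal, the Lefty inhibitors, and the BMP4 to ID axis are 10 genes of TGF-beta family signaling that were read in the transcriptome of Dicer_KO mouse embryonic stem cells (mESCs). They are the ligands Nodal and Bmp4, the coreceptor Tdgf1, the receptor Bmpr1a, the inhibitors Lefty1, Lefty2 and Smad7, and the target genes Id1, Id2 and Id3. The members were chosen by name, through the Ensembl identifier of each gene, and all 10 were found among the 43629 genes counted. The rule uses no measured value. PolyA RNA was sequenced from mESCs of the 129/Ola background whose genotype is given as Dicer knockout, as 2 libraries. Replicate 1 was taken at passage 7, and passage 4 is given for replicate 2. The cells derive from E14TG2a, a widely used mESC line, and were grown in serum with LIF, the cytokine that keeps mESCs pluripotent. Independent knockout lines with different deletions in Dicer1 were raised from sorted single cells after cutting with pairs of Cas9 guides, and the sample labels do not tie a library to a deletion. WT mESCs were not analysed here, so every comparison is between the Dicer_KO libraries and none shows what the loss of Dicer changed.

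Nodal and activins bind pairs of type I and type II receptors, Nodal with the help of a coreceptor such as Tdgf1 (Cripto), and the receptors activate SMAD2 and SMAD3. Lefty1 and Lefty2 are secreted proteins that block Nodal and are themselves switched on by Nodal signaling, which makes a negative feedback loop. BMP4 signals through receptors such as BMPR1A to SMAD1 and SMAD5, and the ID genes are its best known targets in mESCs, where BMP and LIF together sustain self-renewal in serum. Dicer cuts microRNA (miRNA) precursors into mature miRNAs, which repress mRNAs that pair with their seed, bases 2 to 8 of the miRNA. The Lefty genes are known targets of the miRNAs that are most abundant in mESCs.

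The sequences behind that link are shown first. The mature miRNAs below come from the miR-290 cluster and share the seed in capitals, and miR-295 is one of the miRNAs whose loss was followed in these lines by northern blot. They lie between bases 3218968 and 3220837 of chromosome 7 of GRCm38.
mmu-miR-291a-3p: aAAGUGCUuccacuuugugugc
mmu-miR-294-3p: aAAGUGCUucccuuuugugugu
mmu-miR-295-3p: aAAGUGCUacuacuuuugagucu

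An 8mer site pairs with bases 2 to 8 and has an A opposite base 1, a 7mer-m8 site lacks that A, and a 7mer-A1 site has the A but pairs only with bases 2 to 7. The 3′UTRs of both Lefty genes each hold a single 8mer site for this seed, in capitals below, on the plus strand of chromosome 1 of GRCm38. The site of Lefty1 begins at base 238 of a 3′UTR of 425 nt, within chr1:180938202-180938231. The site of Lefty2 begins at base 104 of a 3′UTR of 1290 nt, within chr1:180897906-180897935.
Lefty1: actgtatgcgaAGCACTTAcatgtatagat
Lefty2: cacccagtttaAGCACTTAcatgggtaaat

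The 3′UTRs of the other 8 members held no site of this family. Among 14401 genes with a 3′UTR and enough counts, 17.9% held a site of any of the 3 kinds and 3.08% held an 8mer, whose letters are AGCACTTA. Both windows of 30 nt are equal at 18 positions, the site included, while the coding sequences of Lefty1 and Lefty2, of 1104 nt each, are 91.8% identical. Whether these sites bear on a difference between the libraries was not tested.

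Other seed families of mESCs have sites in 4 further members. The miR-17 family shares most of its seed letters with the miR-290 family, shifted by 1 base, and the miR-15/16 family includes miR-16, the other miRNA probed in these lines. One mature sequence of each is shown.
mmu-miR-17-5p: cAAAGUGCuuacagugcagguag
mmu-miR-16-5p: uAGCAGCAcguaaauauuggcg

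Id1 and Id2 hold 1 site each for the miR-17 family, a 7mer-A1 within chr2:152737381-152737410 on the plus strand and a 7mer-m8 within chr12:25095436-25095465 on the minus strand. Bmpr1a holds a 7mer-A1 and a 7mer-m8 for the miR-15/16 family, within chr14:34414402-34414431 and chr14:34412608-34412637 on the minus strand.
Id1: ttgttgttattaaacaaaCACTTTAgataa
Id2: gggacttgttgGCACTTTtgtgaaaggagg
Bmpr1a, 7mer-A1: catcttcacagGCTGCTAacagtaaacctt
Bmpr1a, 7mer-m8: atggcaaacgcTGCTGCTtttccttatttg

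Smad7 holds an 8mer for miR-15/16 and a 7mer-m8 for miR-17. No site of these 3 families was found in the annotated 3′UTRs of Nodal, Tdgf1, Bmp4 and Id3. Sites are common in general, since 19.0% of the 14401 3′UTRs held one for miR-17 and 24.3% one for miR-15/16. A match is a description of letters and not a shown binding site.

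Replicate 1 had 41710122 counts on genes and replicate 2 had 41566184. Values are given as the raw count and as CPM, the count scaled to a common library size, with the TMM method, which relies on the genes that differ least. A count of 3 corresponds to 0.0691 CPM in replicate 1 and 0.0752 CPM in replicate 2, and all 10 members were far above it. Intervals in brackets are 95% intervals for counting error only. Both libraries carry the same group label, so a difference between them has no replicate check and no p-value, and line, passage and library cannot be told apart. In bulk RNA, fewer expressing cells and less RNA per cell cannot be told apart either. Dicer1, the gene from which a part was deleted, had 1343 and 1510 counts, which without WT libraries checks no label. The paper reports that DICER protein was absent from both lines by immunoblot, and that its RNA sequencing showed a loss of Dicer mRNA. Of the 17816 tested genes, those averaging 10 or more normalized counts, 3826 (21.5%) differed by more than 2-fold between the libraries, 2533 (14.2%) higher and 1293 (7.26%) lower in replicate 1. The 8 mESC markers were all within 2-fold, with Pou5f1 at 39069 and 43025 counts, Sox2 at 26499 and 21353, and Nanog at 47522 and 26215.

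All 10 members passed the count minimum. Lefty1 was more than 2-fold higher in replicate 1, Id1 and Id3 were more than 2-fold lower there, and the other 7 members differed by less. The members beyond 2-fold were thus 3 of 10, against 21.5% of all tested genes. The number of members is too small to read this share as apart from the background. The 5 members of the Nodal side (Nodal, Tdgf1, Lefty1, Lefty2 and Smad7) had log2 ratios of replicate 1 over replicate 2 above 0. The 5 of the BMP side (Bmp4, Bmpr1a, Id1, Id2 and Id3) had ratios below 0. Among all tested genes, 9129 had a ratio above 0 and 8687 one below. Of 4 other BMP ligands with enough counts, read further below, 3 had a ratio above 0 and 1 one below. Smad7 is placed on the Nodal side here by choice, since it inhibits both branches, and Bmpr1a reaches 0.00, on the other side of 0, with unscaled counts. The median ratio was -0.00 for the members and 0.02 for all tested genes.

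**Figure D1:**
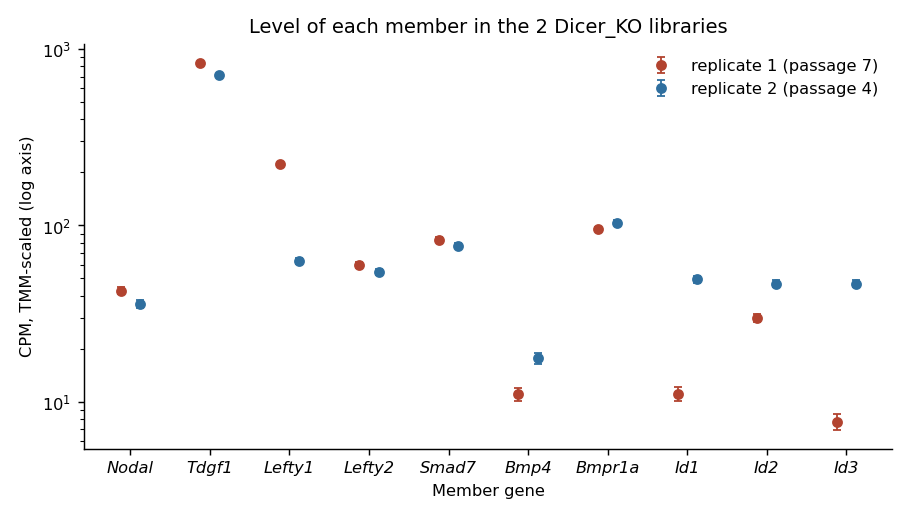
Level of the 10 members in CPM (log axis) in replicate 1 and replicate 2, with 95% counting intervals as bars. The libraries stand clearly apart for Lefty1 (222 and 63.1 CPM), Id1 (11.1 and 49.4 CPM) and Id3 (7.67 and 46.8 CPM), and lie close together for Tdgf1, Smad7, Lefty2 and Bmpr1a.

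Among the ligands, Nodal, the secreted signal that gives the pathway its name, is on chromosome 10 (ENSMUSG00000037171, 61417972 to 61425338, plus strand). It had 1845 counts in replicate 1, or 42.5 CPM (40.6 to 44.5), and 1432 in replicate 2, or 35.9 CPM (34.0 to 37.8), with a mean of 39.2 ± 4.66 CPM (SD, n = 2). Its log2 ratio was 0.24 (0.14 to 0.34), so the libraries differed by more than counting error but by little. Bmp4, the BMP ligand, is on chromosome 14 (ENSMUSG00000021835, 46383520 to 46390669, minus strand). It had 477 and 703 counts, or 10.98 CPM (10.02 to 12.01) and 17.6 CPM (16.3 to 19.0). Bmp4 had the lowest mean of the 10 members per kilobase of exon, though Id3 was lower in replicate 1. Between the libraries, Bmp4 was 1.60-fold lower in replicate 1, with a log2 ratio of -0.68 (-0.85 to -0.51). Annotated genes on the opposite strand overlap Bmp4, Gm15217 (4 and 0 counts) and Gm15222 (2 and 7 counts). Reads where genes overlap were ignored in counting, and how far this lowers the counts of Bmp4 was not tested.

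Tdgf1, the coreceptor that Nodal needs, was by far the most abundant member. It had 36234 counts in replicate 1 and 28476 in replicate 2, or 834 and 713 CPM, with a mean of 774 ± 85.3 CPM (SD, n = 2). That level exceeded 99.5% of all tested genes, and the log2 ratio was 0.23 (0.20 to 0.25). The processed pseudogene Tdgf1-ps1 on chromosome 16 is 513 nt long, shares sequence with part of the mRNA and had 8640 and 6974 counts, and how reads were divided between copies is uncertain. Of the 50-mers of Tdgf1, 8.86% also occur in Tdgf1-ps1. Summed over both, the counts were 44874 and 35450 and the log2 ratio 0.22, close to that of Tdgf1 alone.

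Bmpr1a, the type I receptor through which BMP4 signals, had 4145 counts in replicate 1 and 4139 in replicate 2. On the common scale these were 95.4 and 104 CPM, with a log2 ratio of -0.12 (-0.18 to -0.06). It was the member with the most nearly equal raw counts. An annotated antisense gene that overlaps it, Gm17110, had 1 count in each library.

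The Lefty genes lie in the same orientation on chromosome 1, Lefty2 (ENSMUSG00000066652) at 180893108 to 180899103 and Lefty1 (ENSMUSG00000038793) at 180935022 to 180938400. Lefty1 had 9661 counts in replicate 1 and 2520 in replicate 2. These were 222 CPM (218 to 227) and 63.1 CPM (60.7 to 65.7), a 3.52-fold higher level in replicate 1. The log2 ratio was 1.82 (1.75 to 1.88), and 952 of the 17816 tested genes had a higher one, 380 of them among the 13077 genes averaging 100 or more normalized counts.

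Lefty2, which blocks Nodal in the same manner, had 2592 and 2166 counts, or 59.7 and 54.3 CPM. Its log2 ratio was 0.14 (0.05 to 0.22), so that the 2 feedback inhibitors with the same miRNA site did not share the size of their difference between the libraries. Lefty1 was 5.54 times as high as Lefty2 per kilobase of exon in replicate 1 and 1.73 times in replicate 2. Sequence shared between the genes makes the split of some reads uncertain, since 17.9% of the 50-mers of Lefty1 occur in Lefty2. The summed counts of both genes were 12253 and 4686, with a log2 ratio of 1.26, or 2.40-fold. Thus the sum was also more than 2-fold higher in replicate 1.

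Smad7, the inhibitory SMAD that blocks activated receptors and is induced by both branches, had 3612 counts in replicate 1 and 3064 in replicate 2. Its level was 83.1 and 76.8 CPM, with a mean of 80.0 ± 4.51 CPM (SD, n = 2) and a log2 ratio of 0.12 (0.05 to 0.19). Lefty1, which also acts as a feedback inhibitor of the Nodal branch, had the far higher ratio of 1.82.

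The ID genes encode proteins that bind basic helix-loop-helix transcription factors and keep them from DNA. Id1 (ENSMUSG00000042745, chromosome 2, 152736251 to 152737410, plus strand) had 482 counts in replicate 1 and 1971 in replicate 2. These were 11.1 CPM (10.1 to 12.1) and 49.4 CPM (47.2 to 51.6), which is 4.44-fold lower in replicate 1. Its log2 ratio was -2.15 (-2.30 to -2.01), and 227 of all tested genes had a lower one.

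Id3 (ENSMUSG00000007872, chromosome 4, 136143497 to 136145755, plus strand) had the largest difference of the members. It had 333 counts, or 7.67 CPM (6.86 to 8.53), in replicate 1 and 1866 counts, or 46.8 CPM (44.7 to 48.9), in replicate 2. Replicate 1 was 6.08-fold lower, the log2 ratio was -2.60 (-2.78 to -2.44), and 123 of all tested genes had a lower one. Among those 13077 better counted genes, 75 had a lower ratio than Id1 and 37 a lower ratio than Id3.

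Id2 had 1298 counts in replicate 1 and 1868 in replicate 2, or 29.9 and 46.8 CPM. It was 1.57-fold lower in replicate 1, with a log2 ratio of -0.65 (-0.75 to -0.54), in the direction of Id1 and Id3 but smaller. Per kilobase of exon, Id1, Id2 and Id3 were at 42.6, 19.2 and 26.1 CPM in replicate 2 and at 9.57, 12.3 and 4.28 CPM in replicate 1. Their summed counts were 2113 and 5705, with a log2 ratio of -1.55, or 2.94-fold lower in replicate 1. Id4, a further ID gene on the list of other pathway genes, had 673 and 619 counts and a log2 ratio of -0.00.

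**Figure D2:**
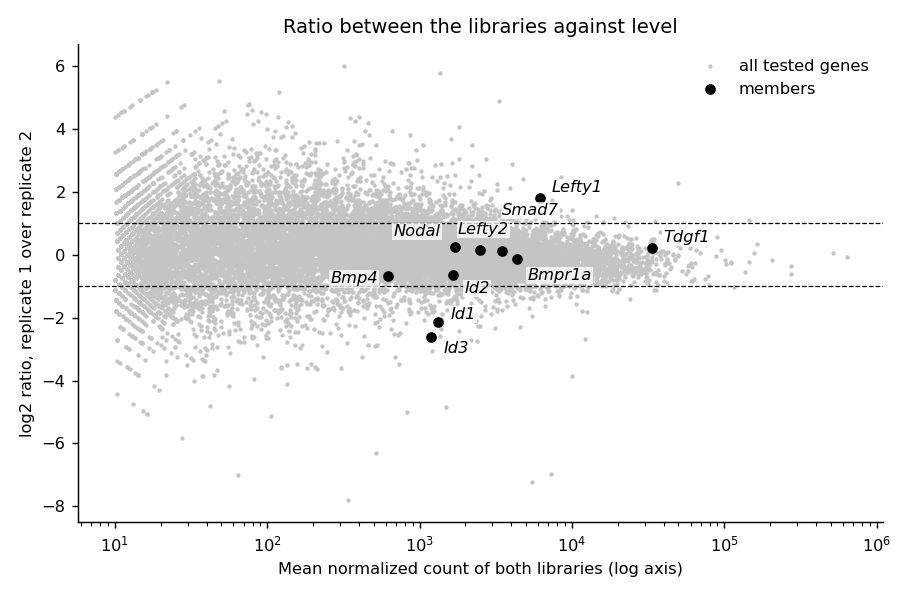
Log2 ratio of replicate 1 over replicate 2 against the mean normalized count (log axis) for all tested genes (grey) and the 10 members (black), with dashed lines at 2-fold. Lefty1 (1.82) lies above the upper line, Id1 (-2.15) and Id3 (-2.60) lie below the lower line, and the other members lie between the lines.

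Ordered by mean level per kilobase of exon (RPKM, mean of both libraries), the members ran from Tdgf1 (295) through Lefty1 (81.2), Id1 (26.1), Lefty2 (21.8), Nodal (18.7), Smad7 (17.7), Id2 (15.7), Bmpr1a (15.7) and Id3 (15.2) to Bmp4 (6.36). Tdgf1 and Lefty1 did not overlap in their ranges over the libraries, nor did Lefty2 and Nodal, while every other pair of neighbors in the order overlapped. The ranges of Lefty1, Id1 and Id3 were wide, for instance from 35.9 to 127 RPKM for Lefty1. Id1 was 0.780 times as high as Id2 in replicate 1 and 2.22 times in replicate 2, so their order turned. Tdgf1 stood at 15.7 and 15.9 times the level of Nodal. With the length of the longest transcript in place of all exons, the first 4 places and the last were the same, and Id3 moved from place 9 to 5.

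**Figure D3:**
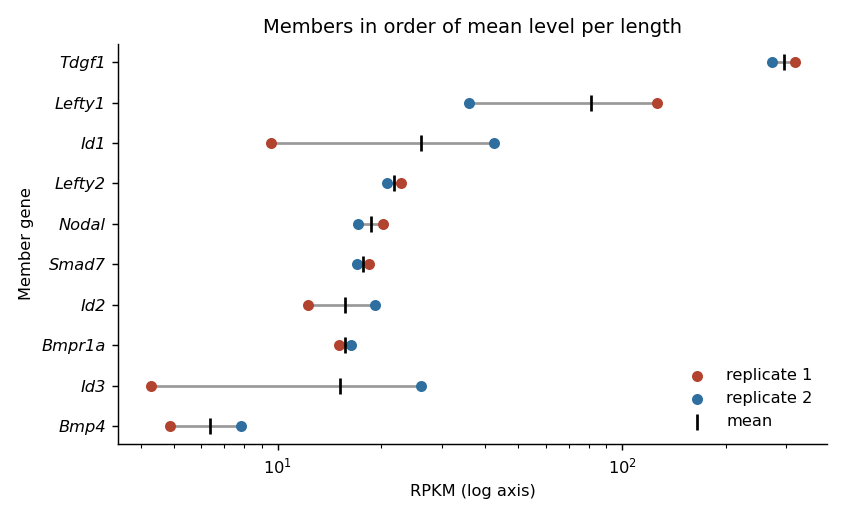
RPKM (log axis) of the members in both libraries, ordered by the mean, with a line joining the libraries of each gene. Tdgf1 is highest in both libraries (318 and 272), Bmp4 has the lowest mean (6.36), Id3 in replicate 1 is the lowest single value (4.28), and the longest lines belong to Id3, Id1 and Lefty1.

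Genes around the members were read to see whether a whole segment differed. Within 500 kb of Lefty1, 21 tested genes had a median log2 ratio of 0.14, with a range of -1.53 to 1.14. Lefty2 is among them, and the median is its own value. The gene next to it, Tmem63a, 3.94 kb away and chosen after its values were seen, had 2841 and 1183 counts and a ratio of 1.14, also higher in replicate 1. None of the 21 reached the ratio of Lefty1.

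Around Id1, 23 tested genes had a median of -0.14, and 4 were more than 2-fold higher and 4 more than 2-fold lower in replicate 1. The shares of all tested genes were 14.2% higher and 7.26% lower, and 23 genes are too few to read as apart from them. The lowest neighbor of Id1 was at -2.83, below Id1. Around Id3, 23 tested genes had a median of -0.03 and a lowest ratio of -1.40, so none was as low as Id3. The medians around the other 7 members lay between -0.21 around Tdgf1 and 0.36 around Bmpr1a. Around Nodal, with a median of 0.22, 6 of 14 tested genes were more than 2-fold higher in replicate 1 and none was more than 2-fold lower. Nodal was singled out here after these values were seen, and whether its segment differed was not tested.

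**Figure D4:**
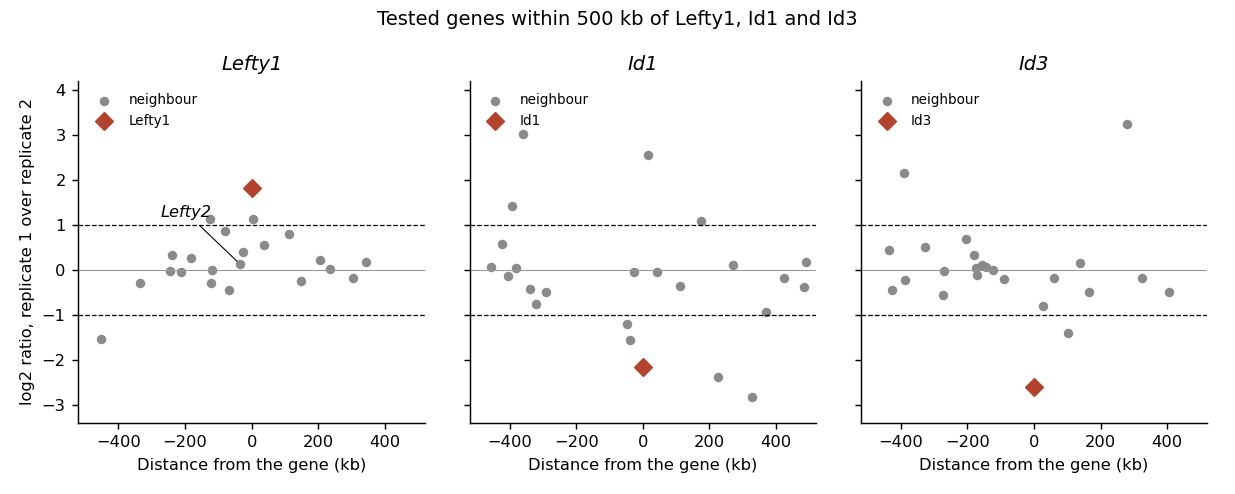
Log2 ratio of replicate 1 over replicate 2 for tested genes within 500 kb of Lefty1, Id1 and Id3, against distance from the gene in kb, with dashed lines at 2-fold. The neighbors (grey) scatter around medians of 0.14, -0.14 and -0.03, and the members (red diamonds) are at 1.82, -2.15 and -2.60.

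A list of other genes of the Nodal, TGF-beta, and BMP pathways was read in the same way. Of 70 genes listed, 69 had a row and 58 had enough counts. More than 2-fold differences were found for 13 of the 58 (22.4%), near the 21.5% of all tested genes, with 11 higher and 2 lower in replicate 1. Their median log2 ratio was 0.32, against 0.02 for all tested genes. Without the genes on chromosome 15, whose genes had a median ratio of 0.59, 9 were higher and 2 lower of 55, and the median was 0.28. None of the members lies on chromosome 15.

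Among the ligands, Tgfb3 (50 and 10 counts, log2 ratio 2.10) and Bmp7 (617 and 146 counts, 1.95) were more than 2-fold higher in replicate 1. The most abundant other ligand was Gdf3, a Nodal-like ligand of pluripotent cells, at 56.0 RPKM with a ratio of -0.41. Inhbb, which encodes an activin subunit, followed at 22.2 RPKM with a ratio of 0.42, while the activin gene Inhba had 0 counts in both libraries. Tgfb1 was at 0.455 RPKM, and the BMP genes Bmp7, Bmp8a and Bmp8b at 2.22, 1.01 and 0.848 RPKM. Pcsk6 and Furin, convertases that cut ligand precursors, were at 20.3 and 3.99 RPKM, and the ratio of Furin was 1.00, just inside 2-fold.

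Among the receptors, Acvr1b, the type I receptor of Nodal and activin, had 4179 and 1325 counts and a ratio of 1.53. Acvrl1 (245 and 61 counts, 1.87) and the TGF-beta receptor gene Tgfbr2 (595 and 120 counts, 2.18) were also higher in replicate 1. Acvr1b and Acvrl1 lie on chromosome 15. Tgfbr1, the type I receptor of TGF-beta, had a mean of 15.3 RPKM, Acvr1b one of 14.6 and Acvr1 one of 3.41. The order of Tgfbr1 and Acvr1b turned between the libraries, with 14.2 and 21.8 RPKM in replicate 1 and 16.3 and 7.51 in replicate 2. Bmpr1b, the receptor gene closest to Bmpr1a in function, was lower in replicate 1 (49 and 180 counts, -1.98), and Bmpr1a was expressed far above it, at 15.7 against 0.473 RPKM. The type II receptors Acvr2a, Acvr2b and Bmpr2 were at 3.66, 3.03 and 3.54 RPKM, with ratios between -0.12 and 0.04. The coreceptor Eng was at 20.9 RPKM and Cfc1, a relative of Tdgf1, at 3.86 RPKM, above Rgma, a coreceptor of BMPs, at 1.62.

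Extracellular antagonists differed in both directions. Fstl3, which binds activin, had 533 and 39 counts and a ratio of 3.62, the highest of the list, and Fst, another activin-binding antagonist, had 66 and 222 counts and a ratio of -1.86. Twsg1, a BMP-binding protein, was the most abundant of them at 17.4 RPKM with a ratio of 0.28. Dand5, an inhibitor of Nodal, was at 1.14 RPKM with a ratio of 0.99, just inside 2-fold. The Nodal antagonist Cer1 had 0 counts in both libraries, and Lefty1 and Lefty2 had a higher mean RPKM than any antagonist on the list.

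The signal transducers differed by less than 2-fold, while 13990 of all 17816 tested genes were within 2-fold. The lists that follow, of 5 or 6 genes each, are too small to read as apart from this background. The 6 receptor SMADs and co-SMAD genes were all within 2-fold, with Smad4 at 20.6 RPKM, Smad2 at 7.22 RPKM and a ratio of -0.63, and Smad3 at 7.21 RPKM and a ratio of 0.81. The 5 nuclear partners and co-repressors were within 2-fold as well. Foxh1, the DNA-binding partner of SMAD2 at Nodal targets, had a mean of 38.9 RPKM and a ratio of 0.81. Foxh1 is the other gene of the list on chromosome 15. Tgif1 (38.4 RPKM, -0.01) and Skil (34.6 RPKM, -0.70) had close means, and both were above Foxh1 in replicate 2. The 5 other intracellular or membrane inhibitors, which belong to the same class as Smad7, had ratios between -0.05 and 0.26, beside 0.12 for Smad7. The most abundant were the ubiquitin ligase genes Smurf2 (13.4 RPKM) and Smurf1 (7.77 RPKM) and the membrane protein gene Pmepa1 (7.79 RPKM).

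Of the 10 other target genes with enough counts, 5 were more than 2-fold higher in replicate 1 and none was more than 2-fold lower. The shares of all tested genes were 14.2% higher and 7.26% lower. With 10 genes, the list is too small to read its share as apart from this background. The median ratio of the 10 was 0.71. Gsc (42 and 14 counts, 1.40) and Eomes (334 and 151 counts, 1.02), targets in mesendoderm, were among those higher in replicate 1, as was Dusp9 (4697 and 1638 counts, 1.40), a phosphatase gene induced by BMP4 in mESCs. Dusp9 therefore lay on the other side of 0 from the BMP targets Id1, Id2 and Id3. The counting intervals of Gsc (0.56 to 2.45) and Eomes (0.74 to 1.31) reached inside 2-fold.

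**Figure D5:**
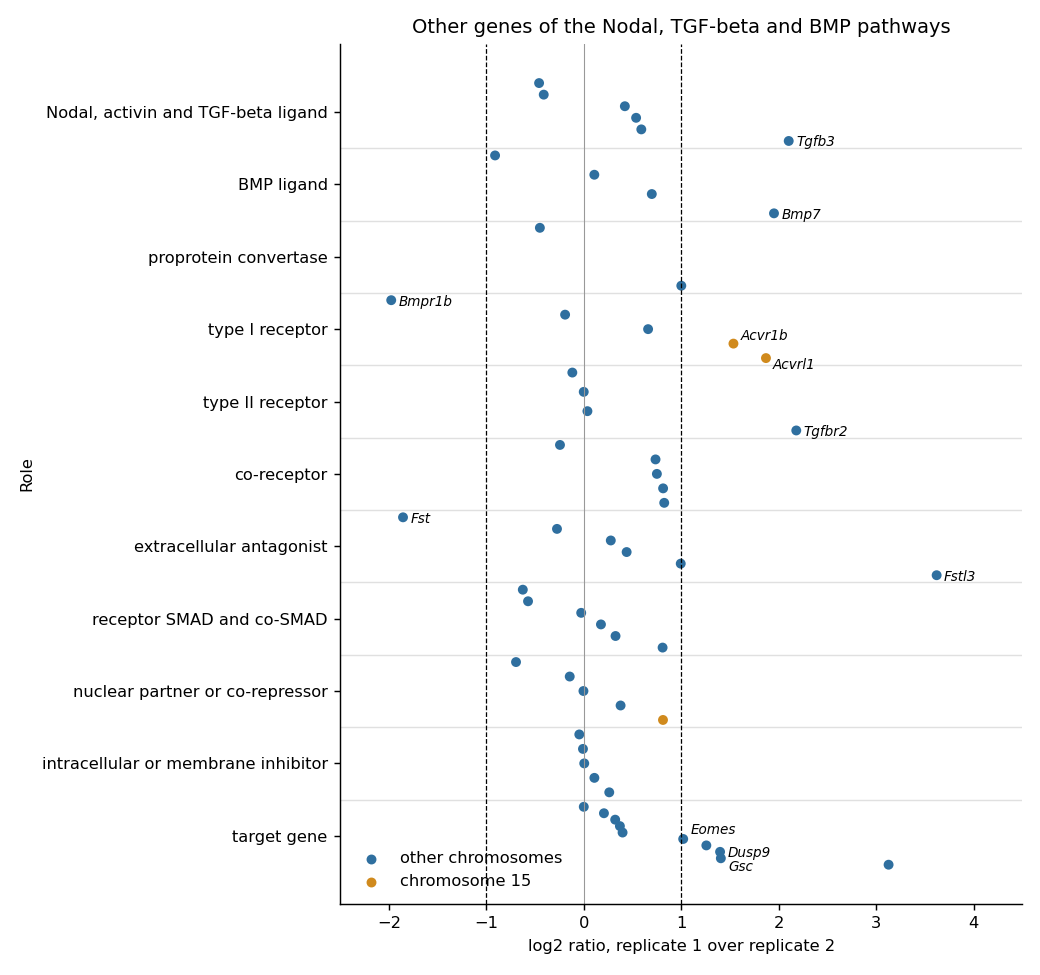
Log2 ratio of replicate 1 over replicate 2 for the 58 other pathway genes with enough counts, by role, with dashed lines at 2-fold and most genes beyond them named. Of the 13 genes beyond 2-fold, 11 lie to the right and 2, Bmpr1b and Fst, to the left, and the SMADs, nuclear partners and intracellular inhibitors stay between the lines.

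Markers of other cell types were read beside the members. All 6 trophectoderm markers with enough counts, of 7 listed, were more than 2-fold higher in replicate 1, against 14.2% of all tested genes. The list is small and was chosen with earlier results of these data known, so this share is a description only. The summed level of the 7 was 504 CPM in replicate 1 and 91.0 CPM in replicate 2. Of these, Krt7, Krt8 and Krt18 are on chromosome 15, where 199 of 684 tested genes were more than 2-fold higher in replicate 1. Krt8 was the highest, at 8004 and 1370 counts, while the defining marker Cdx2 had 6 and 1 counts. The trophectoderm markers were thus higher in the same library as Lefty1, and in the one where Id1 and Id3 were lower. Their part in these differences was not tested. The summed level of 6 primitive endoderm markers was 17.4 and 10.97 CPM, with Gata4 the highest at 586 and 318 counts. Of the 5 primitive endoderm markers with enough counts, 2 were also more than 2-fold higher in replicate 1 and none was more than 2-fold lower. For 4 neuroectoderm markers, all within 2-fold, the sum was 48.3 and 55.8 CPM, led by Nes at 1771 and 1852 counts. The summed level of 6 fibroblast markers was 19.6 and 16.5 CPM, nearly all of it Thy1 at 823 and 621 counts, while Col1a1 had 20 and 18. Of the 3 fibroblast markers with enough counts, 1 was more than 2-fold lower in replicate 1, against 7.26% of all tested genes. That gene, Dcn, had 0 and 19 counts, close to the count minimum.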

How the data were processed

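PolyA RNA of 2 Dicer_KO libraries was analysed. The authors trimmed reads with Trimmomatic, aligned them to mm10 with STAR (2.4.2a), allowing 2 mismatches and up to 3000 multiple hits, and used featureCounts (1.4.5-p1) with Ensembl release 78 to count reads per gene, ignoring those where genes overlap. Raw counts were deposited, and the authors applied no normalization to them. How strand and reads with several alignments were treated in counting is not given in the sources used here.

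Libraries were scaled by TMM in edgeR (4.0.16, R 4.3.3), without fitting a model. Log2 ratios used a pseudocount of 1, genes with a mean of at least 10 normalized counts and a threshold of 2-fold. Intervals for ratios and for CPM were exact binomial intervals, which cover counting error only. With both libraries in 1 group, no test was possible. RPKM used the summed exon length. Positions, 3′UTRs (of the transcript with the longest coding sequence) and biotypes came from GENCODE M21 (GRCm38), in which 1081 genes had no entry, and miRNA sequences from RefSeq (GRCm38.p6). The ratio, its interval and the 2-fold call were tested on simulated counts with counting error only, scaled by total counts. TMM scaling and the other steps were not part of that simulation. Named were all members, Dicer1, pathway genes beyond 2-fold or among the 3 highest RPKM of a role, and the leading markers. Inhba, Cer1, Tdgf1-ps1, Gm17110, Gm15217, Gm15222, Tmem63a, Krt7, Krt18, Cdx2, Col1a1 and Dcn were chosen after their values were seen. Some pathway genes are not reported here by name. Members and lists were chosen with earlier results of these data known. Alternatives were raw counts, total counts, DESeq2 (1.42.0) size factors, a pseudocount of 0.1, other count minimums, a 4-fold threshold, the longest transcript for RPKM, and leaving out a library.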

Additional observations from a re-analysis of the deposited data

How the results depend on the processing

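No paired analysis was possible because the only group has 2 libraries and nothing to pair them with. The 3 members beyond 2-fold were the same number under every scaling, pseudocount and count minimum tried, and 2 (Id1 and Id3) at 4-fold. No log2 ratio of a member changed its side of 2-fold in 40 alternatives. Raw and total counts moved 14 of the 40 by more than counting error, as they shift the median of all tested genes from 0.02 to 0.14. The ratio of Bmpr1a was -0.12 in the main scaling and 0.00, just above 0, with raw counts.

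The other pathway genes beyond 2-fold numbered 13, and 4 at 4-fold, 15 with raw counts, total counts or DESeq2 size factors, and 18 with no filter, of which 12 were higher and 6 lower in replicate 1. All tested genes beyond 2-fold numbered 3826, and 2341 with a mean of at least 50 counts, 7938 with no filter on low counts, and 1021 at 4-fold. A higher threshold and a stricter filter can only lower these numbers. The share of calls that were higher in replicate 1 was 66.2% for all tested genes, 73.8% with raw counts, 73.1% with total counts and 51.0% with no filter. Among members, RPKM with the longest transcript was 401 for Tdgf1, 18.7 for Smad7 and 16.7 for Bmpr1a. Leaving out a library moves a mean of 2 by less than their SD by construction and says nothing on stability, and a ratio cannot be formed without both. With 41566184 counts or more per library, depth does not limit the members, and 11 listed pathway genes fell below the count minimum.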
